A study of Mus musculus with 5 samples.

Results

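The annotation deposited with this data set names 2 classes of mouse sensory neuron after genes linked to itch, NP_Mrgpra3 and NP_Nts, and their transcriptomes were compared directly. Members were all cells given either name in the authors' annotation, which is 104 NP_Mrgpra3 and 400 NP_Nts cells, or 504 of the 3352 cells. The cells came from lumbar dorsal root ganglia (DRG) of 5 untreated, wild type C57BL/6 mice, 3 males and 2 females aged 18 weeks, and were read with the Chromium 3′ assay of 10x Genomics, which tags every captured RNA molecule with a barcode of its own (a unique molecular identifier, UMI). No treatment was compared, and the contrast is between types inside a library. The libraries are told apart by 5 identifiers in the cell names, which the sample labels do not explain. Each was taken as 1 mouse, was numbered 1 to 5 in the order of the identifiers, and was given no sex. Ganglia were dissociated with enzymes before capture, so the cells had lost their axons and their surroundings.

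Itch neurons are unmyelinated C fibres that carry signals from skin irritants to the spinal cord. One class is known for Mas-related G protein-coupled receptors such as Mrgpra3, the chloroquine receptor, and releases glutamate together with peptides such as CGRP. The other makes the peptides natriuretic polypeptide B (gene Nppb), somatostatin (Sst) and neurotensin (Nts), and responds to cytokines such as interleukin-31 and to serotonin and leukotrienes.

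The 3 peptide genes whose names go with the NP_Nts class differed strongly between both types, and the 250 bases before their transcription start are shown because they hold the letters of well-known promoter elements. The sequences are from RefSeq on GRCm38.p6, the mm10 build of the counts, are written 5′ to 3′ on the strand of the gene, and end at the base before the start. The Sst stretch is chr16:23890845-23891094 on the minus strand, the Nppb stretch chr4:147985650-147985899 on the plus strand, and the Nts stretch chr10:102490419-102490668 on the minus strand. Capitals mark a cAMP response element in Sst, a TATA box in Nppb and an AP-1 site in Nts.
Sst: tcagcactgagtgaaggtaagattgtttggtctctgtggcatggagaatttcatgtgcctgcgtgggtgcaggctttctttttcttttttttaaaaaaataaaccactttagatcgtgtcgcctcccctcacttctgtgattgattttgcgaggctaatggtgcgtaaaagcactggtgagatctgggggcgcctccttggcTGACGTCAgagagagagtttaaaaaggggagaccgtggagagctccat
Nppb: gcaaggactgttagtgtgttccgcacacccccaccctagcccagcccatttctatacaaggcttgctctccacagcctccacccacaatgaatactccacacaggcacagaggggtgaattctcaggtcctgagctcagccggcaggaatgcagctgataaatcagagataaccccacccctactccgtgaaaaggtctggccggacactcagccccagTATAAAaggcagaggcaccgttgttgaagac
Nts: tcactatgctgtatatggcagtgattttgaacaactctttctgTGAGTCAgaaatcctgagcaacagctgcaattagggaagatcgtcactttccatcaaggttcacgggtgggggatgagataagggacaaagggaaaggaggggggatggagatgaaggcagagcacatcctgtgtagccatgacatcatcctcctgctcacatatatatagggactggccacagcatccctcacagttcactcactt
The cAMP response element was searched as TGACGTCA, the AP-1 site as TGACTCA and the TATA box as TATAAA, on both strands, and none of the matches shown overlaps another. The element in Sst lies at bases -48 to -41 from the start, the TATA box of Nppb at -31 to -26, and the AP-1 letters of Nts at -207 to -201, where they read on the opposite strand and so appear as TGAGTCA. Among the upstream stretches of 27025 genes, 1.77% held the cAMP response element, 5.16% the AP-1 site and 14.3% the TATA box. A match describes the letters of these stretches, and no binding was measured.

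Libraries held 4, 10, 11, 28 and 51 NP_Mrgpra3 cells and 10, 36, 41, 130 and 183 NP_Nts cells. NP_Nts made up 77.8% ± 3.94 (SD, n = 5) of the cells of both types, from 71.4% in library 1 (exact Clopper-Pearson 95% interval 41.9 to 91.6%) to 82.3% in library 4 (75.4 to 87.9%). Intervals of this kind cover counting error only. The median NP_Mrgpra3 cell held 109200 ± 26700 UMIs and the median NP_Nts cell 58240 ± 9180 (SD, n = 5 library medians). NP_Mrgpra3 was deeper in 5 of 5 libraries, by 1.56 to 2.38 times (exact two-sided sign-flip permutation test, p = 0.0625, the smallest that 5 pairs allow). The median cell had 7879 ± 513 genes in NP_Mrgpra3 and 6836 ± 372 in NP_Nts, again with NP_Mrgpra3 higher in 5 of 5 libraries (exact p = 0.0625). Mitochondrial genes took 4.235% ± 0.526 and 4.769% ± 0.617 of the UMIs (exact p = 0.3750). Of all cells, 7 barcodes occurred in more than 1 library, and 3 cells of both types carried such a barcode.

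To compare genes, the UMIs of a type were added up within every library, which gave 5 sums per type with 510774 to 9012263 UMIs. Levels are given in CPM, the counts of a gene scaled to the same total of 1000000 UMIs in every sum, so they are shares of the RNA of a type and not molecules per cell. Differences are log2 fold changes of NP_Nts minus NP_Mrgpra3, from edgeR's quasi-likelihood test with the library as a block, and adjusted p-values are Benjamini-Hochberg values from that fit. A gene was called at an adjusted p under 0.01 and a difference of at least 2-fold. The authors' clustering used these counts to draw the types, so the tests measure the difference against the spread between libraries and are not independent evidence that the types exist. The p-values treat each library as 1 animal.

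Of 9035 genes tested, 1382 (15.3%) were called, 684 (7.57%) higher in NP_Nts and 698 (7.73%) higher in NP_Mrgpra3. Among these, 648 and 657 had the same direction in 5 of 5 libraries. The libraries of the types did not overlap for 591 and 590 of the called genes, and for 2634 (29.2%) of all genes tested. Among the called genes, differences of at least 16-fold were more numerous toward NP_Mrgpra3, with 133 of 698 against 65 of 684. The NP_Nts cells held 21310364 UMIs in all and the NP_Mrgpra3 cells 9544266, so lower levels could be measured in NP_Nts. The part of this depth in the counts was not tested. The median log2 fold change over all genes tested was 0.04. It was 0.149 when sums were scaled by their total UMIs alone and -0.0654 with DESeq2, so changes near these sizes depend on the scaling. Sums of the same type correlated at 0.934 to 0.994 across genes and sums of different types in 1 library at 0.809 to 0.853, on log values.

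**Figure D1:**
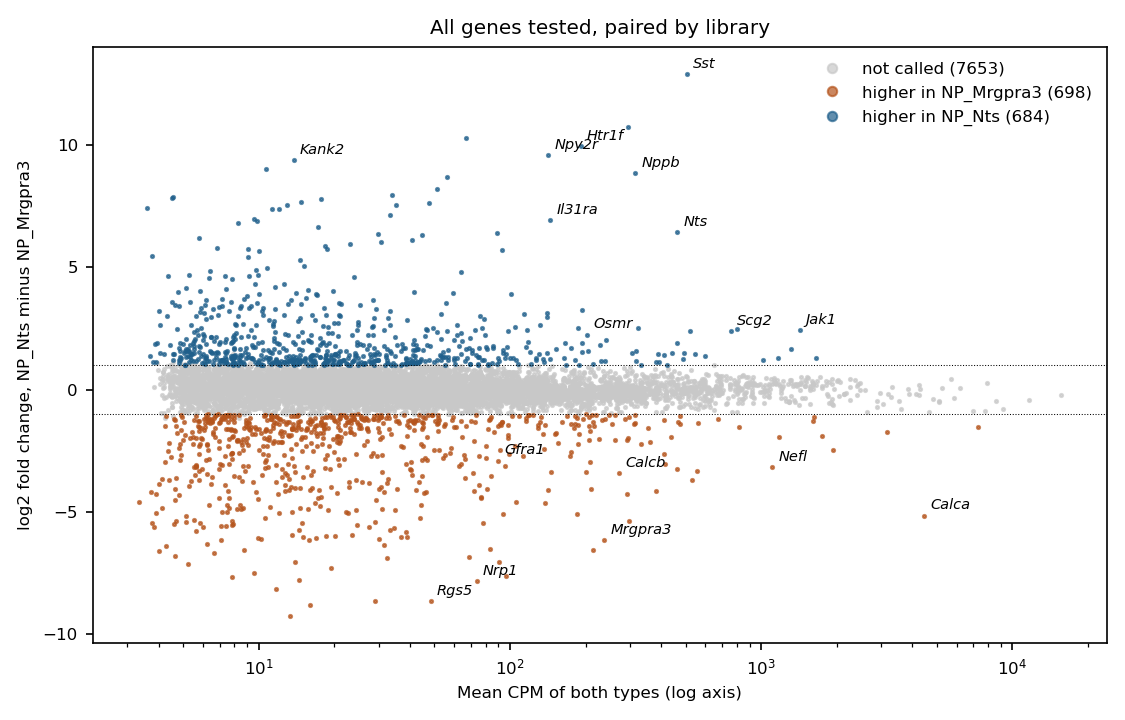
Each point is 1 of the 9035 genes tested, with the mean CPM of both types on a log x axis and the log2 fold change (NP_Nts minus NP_Mrgpra3) on the y axis. Coloured points are the 684 genes called higher in NP_Nts and the 698 called higher in NP_Mrgpra3, and dotted lines mark 2-fold. Sst lies highest and the gene Calca is the most abundant labelled gene on the lower side.

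Neuropeptide genes separated the types in both directions. Of 36 listed, 11 were tested, 4 were higher in NP_Nts, 3 were higher in NP_Mrgpra3, and the list's median log2 fold change was -0.44. Counts of this and later lists stand beside 15.3% called of all genes tested, 7.57% toward NP_Nts and 7.73% toward NP_Mrgpra3. Across the 17 lists the share called ran from 11.1% (calcium channels) to 75% (amine and lipid receptors, 16 tested of 56 listed). The expression filter kept genes that were high enough in either type alone and dropped genes low in both. A low gene could thus enter through the type where it was higher, which can raise the share called in lists of mostly low genes. How far this raised the shares was not tested. Sst, whose product inhibits neighbouring cells through somatostatin receptors, stood at 786, 408, 984, 1580 and 1300 CPM in NP_Nts libraries 1 to 5. In the NP_Mrgpra3 sums it had 1 UMI in all, in library 4, so the types did not overlap. Summed over libraries, the ratio was 12000, with a counting interval of 2150 to 473000 (edgeR adjusted p = 1.8e-17). Nppb, the peptide that itch neurons use toward spinal neurons, measured 818, 369, 537, 705 and 711 CPM in NP_Nts. In NP_Mrgpra3 it measured 0, 2.22, 1.67, 1.2 and 1.01 CPM. Every NP_Nts library was far above every NP_Mrgpra3 library (log2 fold change 8.83, SE 0.2, adjusted p = 2.4e-16 by edgeR).

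Nts, which encodes neurotensin and gives the class its name, reached 731, 1210, 906, 922 and 809 CPM in NP_Nts. Its NP_Mrgpra3 values were 0, 53.9, 2.51, 0 and 6.04 CPM. Library 2 stood high there, and 1 of its cells held 70 of the 73 Nts UMIs, which is 95.9%. The log2 fold change was 6.44 (SE 0.4, edgeR adjusted p = 2.3e-10) and 7.95 without library 2. Cck, the cholecystokinin gene, was lower in level and variable, at 29.2, 5.69, 14.6, 24.7 and 21.5 CPM in NP_Nts and 0.95 CPM in NP_Mrgpra3, from 3 UMIs. The ratio of the sums was 65.4 (counting interval 22.2 to 318), and the fitted log2 fold change of 5.67 became 6.95 without library 1.

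Calca, which encodes calcitonin gene-related peptide (CGRP), stood at 9810, 6470, 10500, 7650 and 8550 CPM in NP_Mrgpra3. In NP_Nts it stood at 881, 161, 255, 158 and 209 CPM. The groups did not overlap, and the log2 fold change was -5.15 (SE 0.24, edgeR adjusted p = 4.2e-12). NP_Nts library 1 was the highest of its type, and cell 7 of its 10 gave 473 of the 603 Calca UMIs. Calcb, the second CGRP gene, ranged from 374 to 590 CPM in NP_Mrgpra3 and from 38.4 to 70.2 CPM in NP_Nts (log2 fold change -3.42, SE 0.15).

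Other peptides of pain neurons differed less. Adcyap1, the PACAP gene, was called higher in NP_Mrgpra3 (log2 fold change -1.95, edgeR adjusted p = 0.0064), with 6.69 to 8.87 CPM there and 0, 12.8, 0, 0.138 and 2.11 CPM in NP_Nts. The groups overlapped, 1 cell gave 24 of the 27 Adcyap1 UMIs of NP_Nts library 2, and the call was lost with no replicate block (adjusted p = 0.038) and without library 1, 3, 4 or 5. Without library 2 the log2 fold change was -3.08. Tac1, the substance P gene, was not called, at 291 ± 329 CPM in NP_Mrgpra3 and 302 ± 136 in NP_Nts (SD, n = 5). NP_Mrgpra3 library 1 held 873 CPM of it. Nmb, the neuromedin B gene, was at 515 ± 84 and 325 ± 48.6 CPM, a difference under 2-fold (log2 fold change -0.76).

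**Figure D2:**
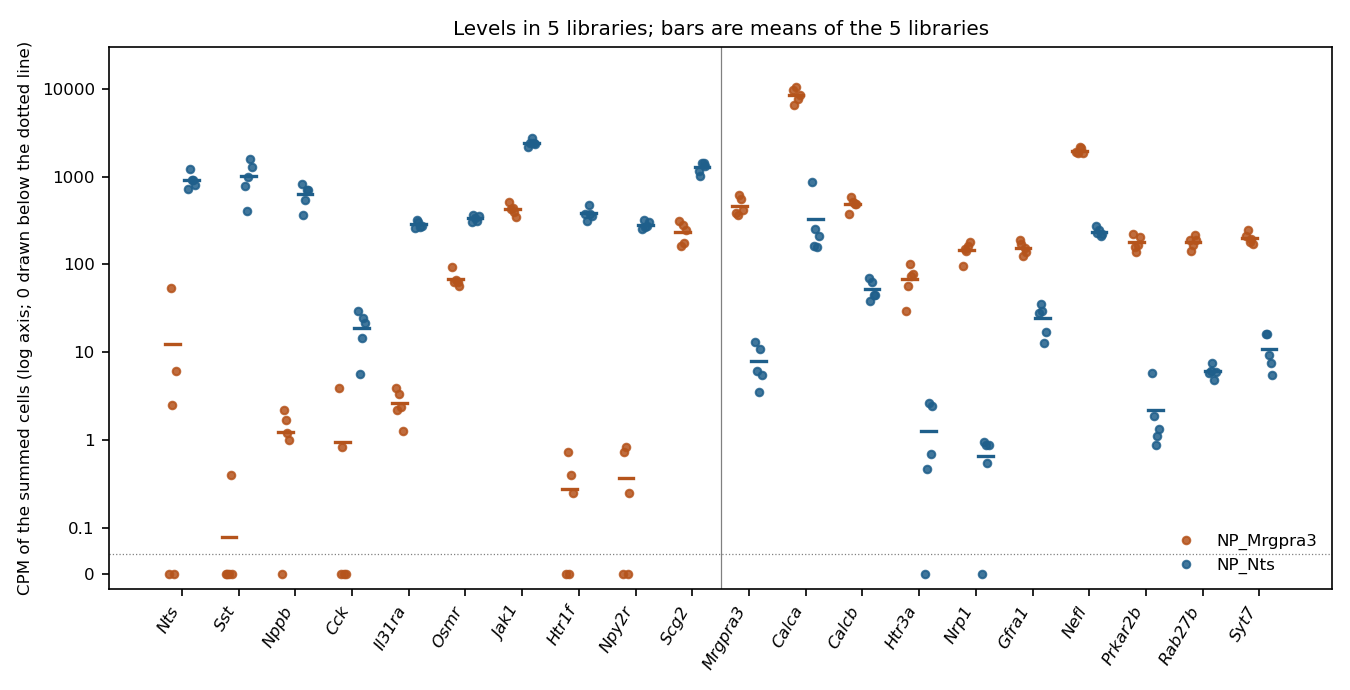
CPM of 20 genes in the 5 libraries of NP_Mrgpra3 (orange) and NP_Nts (blue), on a log axis, with values of 0 drawn under the dotted line and short bars at the mean of 5 libraries. The 10 genes on the left were called higher in NP_Nts and the 10 on the right higher in NP_Mrgpra3, and no point of one type reaches the range of the other.

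The genes of the type names were also counted in single cells. The types were drawn from these counts and named after such genes, so this describes the types and is no independent check. All of Nts, Sst and Nppb had at least 1 UMI in 390 of 400 NP_Nts cells (97.5%) and in 0 of 104 NP_Mrgpra3 cells, of which 84 had none of them. With each cell thinned to 20000 UMIs, which left 388 and 103 cells, the shares were 95.4% and 0%. Sst was seen in 97.8% of NP_Nts cells (median 56 UMIs) and in 0.962% of NP_Mrgpra3 cells, below the 2.81% of satellite glia, a cell type that should lack it and whose median cell held 17729 UMIs. Mrgpra3 was seen in 94.2% of NP_Mrgpra3 cells (exact Clopper-Pearson 95% interval 87.9 to 97.9%, median 41 UMIs). It was also seen in 24.2% of NP_Nts cells (20.1 to 28.8%), or 10.6% after thinning, above the 1.61% of glia and 5.78% of NP_Mrgprd cells. Calca was seen in 100% and 98.8% of the cells, with a median of 729 UMIs against 6, but also in 88% of glia. Its share of cells therefore carries no contrast, and its level does.

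Mas-related receptors detect pruritogens such as chloroquine. Of 21 listed, 14 had a row and 5 were tested, and 2 of these were higher in NP_Mrgpra3 and none in NP_Nts (list median -0.37). Mrgpra3 stood at 390, 370, 611, 556 and 413 CPM in NP_Mrgpra3 and at 13.2, 6.17, 3.53, 10.8 and 5.55 CPM in NP_Nts. No libraries overlapped (log2 fold change -6.15, SE 0.18, edgeR adjusted p = 5.4e-15). Mrgpre, a family member of less known ligand, was at 16.4 ± 1.96 and 6.58 ± 2.12 CPM (SD, n = 5, log2 fold change -1.33). Mrgpra2a, Mrgpra2b and Mrgpra6 were not called, with log2 fold changes of -0.02, -0.37 and -0.19. Mrgprx1, the BAM8-22 receptor, was too low to be tested, at 5.78 CPM in NP_Mrgpra3 and 0.83 CPM in NP_Nts. Members of the Mrgpra group are near-identical copies of each other, and how their reads were divided is uncertain.

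Of 23 cytokine receptor and JAK-STAT genes tested, 8 were higher in NP_Nts, 2 were higher in NP_Mrgpra3 and 13 were not called, with a list median of 0.45. Il31ra, the specific chain of the interleukin-31 receptor, stood at 257, 317, 308, 268 and 277 CPM in NP_Nts. Its NP_Mrgpra3 levels were 3.92, 2.22, 3.35, 2.39 and 1.26 CPM. This is a wide gap without overlap (log2 fold change 6.92, SE 0.18, edgeR adjusted p = 8e-16). Osmr, its partner chain shared with oncostatin M, was at 305, 369, 334, 311 and 359 CPM in NP_Nts. NP_Mrgpra3 also held it, at 94, 62.8, 66.9, 63.7 and 57.4 CPM. The Osmr groups did not overlap, but the fold was smaller (log2 fold change 2.25, SE 0.12). Il31ra was seen in 99.8% of NP_Nts cells and 13.5% of NP_Mrgpra3 cells, or 1.94% after thinning, with 0 of 249 glia, which allows a share of up to 1.2% of glia with a UMI at their lower depth.

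Jak1, the kinase bound to these receptors, ranged from 2190 to 2740 CPM in NP_Nts and from 348 to 521 CPM in NP_Mrgpra3 (log2 fold change 2.42, SE 0.1). The feedback inhibitors Socs2 and Socs3 were higher in NP_Nts too, at 703 against 273 CPM and 106 against 31.2 CPM. Il13ra1, a chain of the interleukin-4 and interleukin-13 receptor, was higher in NP_Nts (16.8 against 5.79 CPM), while Il4ra, the other chain, was higher in NP_Mrgpra3 (29.3 against 16.1 CPM). The libraries of Il4ra overlapped. Il17ra, the interleukin-17 receptor, was higher in NP_Nts at 12.2 against 1.67 CPM, and Ifngr1, the interferon gamma receptor chain, higher in NP_Mrgpra3 at 20.9 against 2.54 CPM. Stat3 (log2 fold change 0.54) and the leukaemia inhibitory factor receptor Lifr (0.93) missed the 2-fold minimum. The common signalling chain Il6st showed -0.06.

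Receptors for amines and lipids split evenly, with 6 of 16 tested higher in each type (list median 0.56). Toward NP_Nts stood the serotonin receptors Htr1f and Htr1a, the leukotriene receptor Cysltr2 and the lysophosphatidic acid receptor Lpar1. Htr1f was at 379, 315, 481, 379 and 358 CPM in NP_Nts, against 3 UMIs in all NP_Mrgpra3 cells, a ratio of 1190 (counting interval 408 to 5780). Htr1a was at 66 ± 6.02 against 0.884 ± 1.71 CPM, and Cysltr2 at 79.3 ± 13.4 against 2.17 ± 3.29 CPM (SD, n = 5). These groups did not overlap. Lpar1 was at 109 against 9.29 CPM, and the sphingosine 1-phosphate receptors S1pr1 and S1pr3 at 46.7 against 4.06 CPM and 23.6 against 5.07 CPM. F2rl1, the protease receptor PAR2, did not enter the test. It had 191 UMIs in NP_Nts and 0 in NP_Mrgpra3, at least 28.5-fold higher in NP_Nts when the NP_Mrgpra3 sum is set to 3 UMIs.

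Toward NP_Mrgpra3 stood the ionotropic serotonin receptor subunits Htr3a and Htr3b. Htr3a measured 29.4, 56.9, 100, 73.7 and 77.8 CPM there and 0, 0.474, 2.65, 0.691 and 2.44 CPM in NP_Nts (log2 fold change -5.67, SE 0.23, and -6.27 without library 5), and Htr3b fell on the same side at 25 against 1.41 CPM. The adenosine receptor Adora2b was at 67.4 against 2.66 CPM and the prostaglandin D2 receptor Ptgdr at 27.7 against 0.172 CPM. Hrh1, the histamine H1 receptor, was called higher in NP_Mrgpra3 at 22.3 ± 7.73 against 13.3 ± 4.82 CPM (SD, n = 5, log2 fold change -1.17). Its groups overlapped, and NP_Nts was the higher type in library 1.

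Channels that transduce stimuli were split as well. Of 24 TRP, P2X and mechanosensory genes tested, 6 were higher in NP_Nts and 4 in NP_Mrgpra3 (list median 0.32). This is 41.7% called, beside 15.3% of all genes tested. Trpm2, a channel gated by oxidative stress, was at 124 ± 11.4 CPM in NP_Nts and 3.19 ± 2.56 in NP_Mrgpra3 (SD, n = 5, log2 fold change 4.79). Trpm6, a magnesium channel, had 630 UMIs in NP_Nts and 1 in NP_Mrgpra3, a ratio of 282 (50.5 to 11200). The ATP-gated subunit P2rx2 was at 111 against 38.6 CPM, and its partner P2rx3 was not called (169 against 172 CPM). Piezo2, the touch channel, was higher in NP_Mrgpra3, at 68.5, 52.5, 66.1, 89.2 and 87.3 CPM against 11.7, 32.7, 15, 21.1 and 23.2 CPM in NP_Nts (log2 fold change -1.92). Piezo1 showed the opposite order at a low level, 7.87 against 0.763 CPM in NP_Nts and NP_Mrgpra3.

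The irritant channels through which itch receptors are known to act were not called. Trpv1, the capsaicin channel, was at 177 ± 27.9 CPM in NP_Nts and 102 ± 19.5 in NP_Mrgpra3 (SD, n = 5). It was higher in NP_Nts in 5 of 5 libraries with no overlap, but by less than 2-fold (log2 fold change 0.66, SE 0.12). Trpa1, the mustard oil channel, was at 15.6 ± 2.15 and 20.5 ± 12.8 CPM, and the difference did not pass the test (log2 fold change -0.18, SE 0.21). Plcb3, the phospholipase C that couples itch receptors to these channels, showed 0.31 (SE 0.11).

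**Figure D3:**
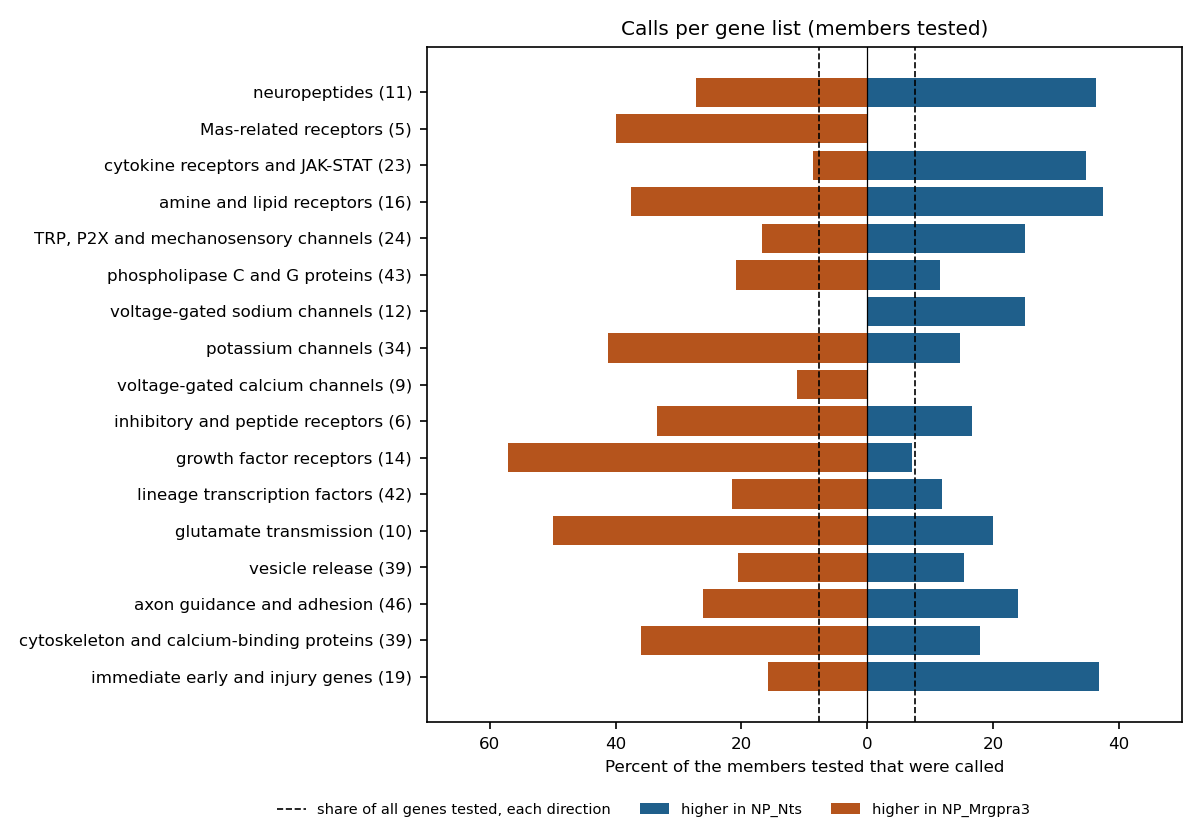
Percent of the tested members of 17 gene lists that were called higher in NP_Nts (blue, to the right) or NP_Mrgpra3 (orange, to the left), with the number of members tested in parentheses. Dashed lines mark the 7.57% and 7.73% of all genes tested, and most lists lie beyond them on both sides.

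Of 43 phospholipase C, G protein and RGS genes tested, 9 were higher in NP_Mrgpra3, 5 in NP_Nts and 29 were not called, with a list median of 0.09. RGS proteins shorten G protein signals. Rgs7 was at 72.5 against 1.23 CPM, Rgs17 at 416 against 110 CPM and Rgs4 at 1840 against 517 CPM, higher in NP_Mrgpra3. Rgs12 went the other way, at 27.2 CPM in NP_Nts and 2.21 CPM in NP_Mrgpra3. The phospholipase Plcd3 (19.5 against 1.38 CPM), the adenylyl cyclase Adcy2 (38.4 against 3.59 CPM) and the G protein subunit Gnb4 (186 against 49.8 CPM) were higher in NP_Nts.

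Of 34 potassium channel genes tested, 14 were higher in NP_Mrgpra3, 5 were higher in NP_Nts and 15 were not called, with a list median of -0.49. Kcnk18, the background channel TRESK, was at 60.1 ± 17.5 against 1.86 ± 0.301 CPM (SD, n = 5, log2 fold change -4.87). Kcnmb1, a subunit of large-conductance calcium-activated channels, was at 364 against 54 CPM, and the pore-forming Kcnma1 at 12.8 against 1.06 CPM. The transient-current channel Kcnd3 was at 11 CPM against 4 UMIs in all NP_Nts cells. On the NP_Nts side, Kcnk2, the TREK-1 channel, was at 18.8 against 1.19 CPM and Kcnn1, a small-conductance calcium-activated channel, at 51.5 against 15.3 CPM.

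Of 12 sodium channel genes tested, 3 were higher in NP_Nts, 0 were higher in NP_Mrgpra3 and 9 were not called, and the list median of 0.06 was near that of all genes. The share called was 25%, beside 15.3% of all genes tested. The accessory subunit Scn2b (36.4 ± 10.2 against 5.3 ± 6.43 CPM, SD, n = 5) was called. Scn2a1 was called at 10.7 against 5.18 CPM, but lost the call with DESeq2 (log2 fold change 0.98, adjusted p = 0.047) and without library 4 or 5. The pore-forming channels of pain neurons, Scn9a, Scn10a and Scn11a, were not called, with log2 fold changes of 0.11, -0.41 and -0.75. Of 9 calcium channel genes tested, 1 was called (list median -0.25), which is 11.1% and under the 15.3% of all genes tested. The called gene was Cacng2, an auxiliary subunit by its name, at 26.5 CPM in NP_Mrgpra3 and 0.643 CPM in NP_Nts. Whether it acts on calcium channels in these cells was not tested.

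Among 6 inhibitory and peptide receptors tested, the neuropeptide Y receptor Npy2r was called higher in NP_Nts, at 256, 320, 267, 271 and 306 CPM. It had 3 UMIs in NP_Mrgpra3, a ratio of 922 (counting interval 315 to 4470). The nucleotide receptor P2ry2 (207 against 2 UMIs, a ratio of 231 with a counting interval of 63.2 to 1920) was higher in NP_Mrgpra3. The median of this list was -0.45.

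Growth factor receptors had the lowest median of the 17 lists, -1.52, with 8 of 14 tested higher in NP_Mrgpra3 and 1 in NP_Nts. Gfra1, the GDNF co-receptor, was at 190, 171, 124, 152 and 137 CPM in NP_Mrgpra3 and at 27.8, 35.6, 29.6, 12.8 and 16.9 CPM in NP_Nts. No libraries overlapped (log2 fold change -2.90, SE 0.17). Ret, the signalling receptor for GDNF, was at 263 against 140 CPM, and the neurotrophin receptor Ngfr at 80.3 against 11.6 CPM. The exception was Gfra3, the artemin co-receptor, at 180, 332, 176, 82.3 and 139 CPM in NP_Nts and 37.2, 36.2, 9.2, 12.3 and 39.8 CPM in NP_Mrgpra3 (log2 fold change 2.55, SE 0.2). Nrp1, a receptor for semaphorins and vascular endothelial growth factor, was at 147 ± 31.6 CPM in NP_Mrgpra3 and 0.654 ± 0.397 in NP_Nts (SD, n = 5, log2 fold change -7.81).

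Of 42 lineage transcription factors tested, 9 were higher in NP_Mrgpra3 and 5 in NP_Nts (median -0.10). Runx1, the factor of non-peptidergic sensory neurons, was at 180 ± 13.8 CPM in NP_Nts and 59.6 ± 8.65 in NP_Mrgpra3 (SD, n = 5, log2 fold change 1.53). Klf5 (270 against 79.2 CPM), Bhlhe41 (101 against 24.9 CPM) and Zfhx4 (33.1 against 4.67 CPM) stood on the same side. Casz1, a zinc finger factor, was at 64.2 CPM in NP_Mrgpra3 and 0.537 CPM in NP_Nts, and Etv5, an ETS factor, at 37.4 against 6.23 CPM. The general sensory factors Pou4f1 and Isl1 were not called, with log2 fold changes of -0.29 and 0.40.

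Of 10 glutamate genes tested, 5 were higher in NP_Mrgpra3 and 2 in NP_Nts (median -0.87). Slc17a6, the vesicular glutamate transporter VGLUT2, was at 112, 148, 125, 132 and 133 CPM in NP_Mrgpra3 and at 24.8, 69.3, 55.2, 49.9 and 49.4 CPM in NP_Nts (log2 fold change -1.47, SE 0.11). The groups did not overlap. The kainate receptor subunit Grik1 was at 34.4 against 1.06 CPM, while its relative Grik4 was higher in NP_Nts at 39.8 against 10.8 CPM.

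Of 39 genes of vesicle release, 8 were higher in NP_Mrgpra3 and 6 in NP_Nts (median -0.35). Syt7, a calcium sensor, was at 201 ± 31.1 against 10.9 ± 4.94 CPM, and Rab27b, which tethers secretory vesicles, at 181 ± 28.1 against 6.07 ± 0.954 CPM (SD, n = 5). The prohormone convertase Pcsk2 was at 297 against 115 CPM. Scg2, a granin of peptide granules, was at 1170, 1020, 1440, 1440 and 1320 CPM in NP_Nts and at 309, 163, 285, 177 and 245 CPM in NP_Mrgpra3 (log2 fold change 2.39, SE 0.12), and the peptide-amidating enzyme Pam was at 129 against 51.9 CPM.

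Of 39 cytoskeletal and calcium-binding genes tested, 14 were higher in NP_Mrgpra3, 7 in NP_Nts and 18 were not called (median -0.45). Nefl, the light neurofilament, was at 1910, 1850, 2160, 2100 and 1850 CPM in NP_Mrgpra3 and at 276, 230, 249, 209 and 222 CPM in NP_Nts (log2 fold change -3.18, SE 0.1). Nefm was at 543 against 125 CPM and alpha-internexin (Ina) at 85.5 against 2.42 CPM, but the heavy neurofilament Nefh was not called (75 against 72.1 CPM). The calcium-binding gene Necab1 was higher in NP_Mrgpra3 (44.3 against 4.41 CPM), and its relatives Necab2 and Necab3 in NP_Nts (48.6 against 14.7 CPM and 50.5 against 6.87 CPM). The libraries of Necab2 overlapped.

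Of 46 axon guidance and adhesion genes tested, 12 were higher in NP_Mrgpra3 and 11 in NP_Nts (median -0.04). The ephrin receptor Epha5 was at 45.9 against 1.21 CPM, the adhesion molecule Alcam at 134 against 9.83 CPM and the netrin receptor Unc5d at 23.3 against 4.33 CPM, all higher in NP_Mrgpra3. Pcdh17, a protocadherin, was at 137 against 15.5 CPM and the presynaptic adhesion gene Nrxn3 at 131 against 27.5 CPM, higher in NP_Nts.

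Immediate early and injury genes were called 7 times toward NP_Nts and 3 times toward NP_Mrgpra3 among 19 tested (median 0.63). Atf3, a factor induced by nerve injury, was at 436, 487, 477, 239 and 209 CPM in NP_Nts and at 78.3, 96, 114, 70.9 and 80 CPM in NP_Mrgpra3. Its NP_Nts level was higher in libraries 1 to 3 than in 4 and 5, and no library overlapped (log2 fold change 1.84, SE 0.13). Jun (736 against 251 CPM), Egr1 (88.3 against 31.5 CPM) and Fosb (101 against 19.1 CPM) were called in the same direction, and Fos (log2 fold change 0.37) was not. On the other side stood the growth genes Gap43 (953 ± 247 against 161 ± 203 CPM) and Sox11 (77.4 ± 12.4 against 11.9 ± 18.1 CPM). Dissociation preceded capture in every library, and its part in these differences was not tested.

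Some NP_Nts sums held genes of NP_Mrgpra3 or peptidergic neurons, for some of these genes mostly from 1 cell. In library 1, cell 7 of 10 gave 116 of 119 Tagln2 UMIs and 45 of 50 S100a11 UMIs, besides the Calca UMIs given above. In library 2, Gap43 reached 523 CPM against 39.4 to 97.1 CPM in the other NP_Nts libraries. There cell 12 of 36 gave 258 of 1102 Gap43 UMIs, so most came from other cells. Without libraries 1 and 2, the log2 fold change moved from -4.27 to -6.23 for Tagln2, from -4.05 to -5.37 for S100a11, from -3.31 to -4.05 for Gap43, from -3.51 to -4.90 for Sox11, from -4.10 to -5.13 for Cd44 and from -4.41 to -5.27 for Ncam1. The direction was the same each time. Single libraries also moved Il17ra (3.36, and 4.05 without library 2), Kcnk2 (3.89, and 4.66 without library 2), Cysltr2 (6.13, with 6.86 without library 1 and 5.37 without library 5), Htr1a (7.12, and 7.99 without library 1), Epha5 (-5.94, and -5.26 without library 4) and Grik1 (-4.40, and -5.00 without library 5) by more than 1.5 times. Where the lower type held few UMIs, the fitted values moved as well, for Sst (12.89, with 14.38 without library 4 and 12.06 without library 5), Gm525 (10.71, and 11.89 without library 3), Trpm6 (7.53, with 9.13 without library 4 and 6.76 without library 5), Ovol2 (-8.63, with -11.08 without library 1 and -7.67 without library 5) and P2ry2 (-7.49, with -8.14 without library 2 and -6.86 without library 5). Those of Kank2, Ptpro, Fnbp1l, Cdk15, 1700011L22Rik and 9230105E05Rik moved by over 1.5 times too. Fitted values of genes with so few UMIs depend on the prior count and are no bounds. With libraries 1 and 2 both left out, 769 genes were called higher in NP_Nts and 880 in NP_Mrgpra3. Of these, 616 and 681 were among those called with all libraries. Leaving out libraries 1 and 2 together was decided after the data were seen.

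**Figure D4:**
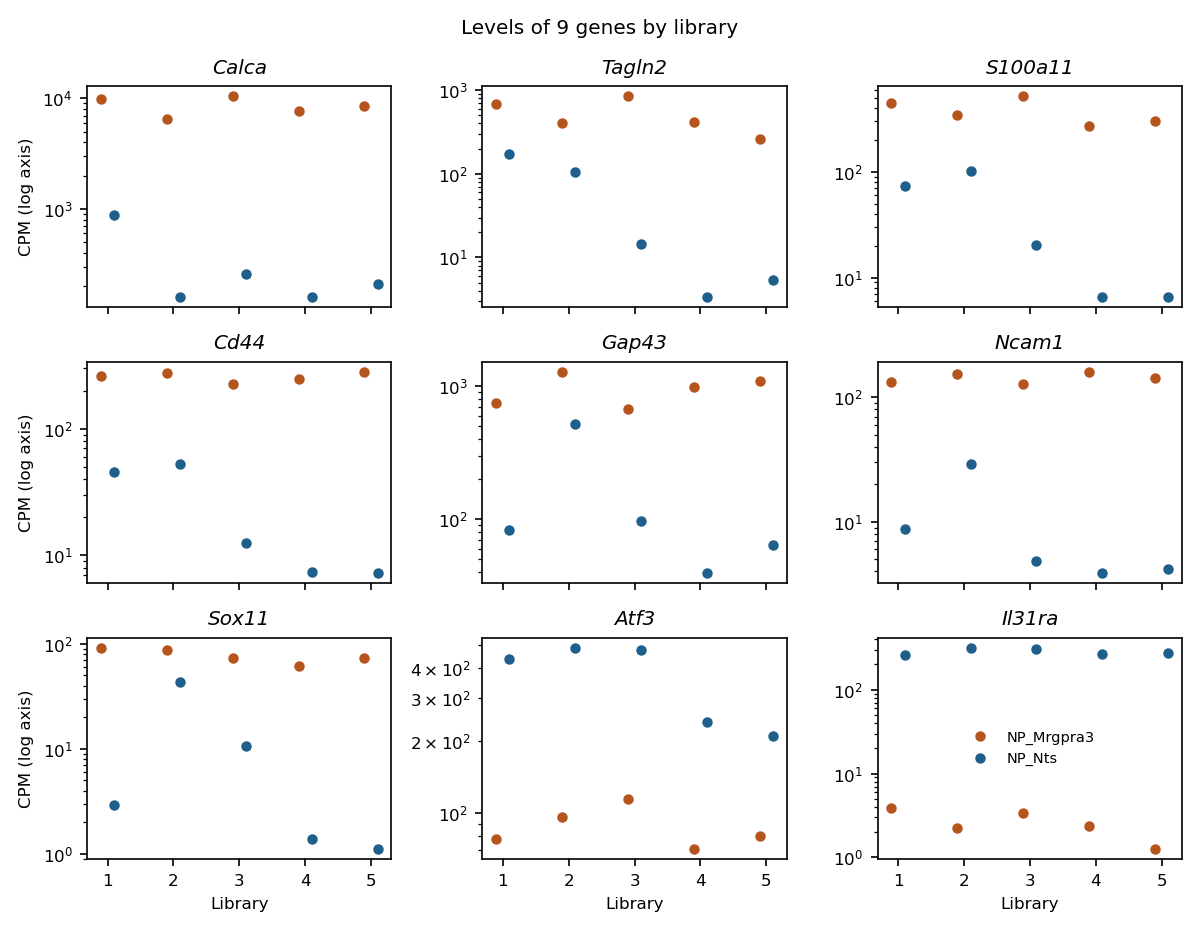
CPM of 9 genes in each library for NP_Mrgpra3 (orange) and NP_Nts (blue), on log axes that differ between panels. NP_Nts libraries 1 and 2 lie above libraries 4 and 5 for Tagln2, S100a11, Cd44 and Ncam1, while Il31ra keeps a range of 257 to 317 CPM in NP_Nts.

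Besides the lists, the genes with the largest folds were named. Toward NP_Nts these were Sst, Gm525, 9230105E05Rik, Htr1f, Npy2r, Kank2, Gper1, Nppb, 1700011L22Rik, Cmtm7, Ptprk and Ptpro. Gm525 had 14141 UMIs in NP_Nts and 3 in NP_Mrgpra3, a ratio of 2110 (counting interval 722 to 10200). Kank2, an adaptor of focal adhesions, had 576 UMIs against 0, at least 86-fold higher. Gper1, a membrane oestrogen receptor, had 460 against 0, at least 68.7-fold higher. Both bounds set the NP_Mrgpra3 sum to 3 UMIs.

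Toward NP_Mrgpra3 the largest folds were those of 5830473C10Rik, Serpina1e, Rgs5, Ovol2, Slc6a19, Nrp1, Fnbp1l, Klhdc8a, Cdk15, Ptgdr, Prkar2b and Casz1. 5830473C10Rik had 233 UMIs against 0, at least 173-fold higher. Serpina1e had 197 against 0, at least 147-fold higher, but came from 24% of the cells, ranged from 5.02 to 70.5 CPM, and belongs to a family of near-identical copies. Ovol2, a zinc finger repressor, ranged from 42.9 to 81.8 CPM, and its 3 NP_Nts UMIs all came from 1 cell of library 1. Prkar2b, a regulatory subunit of protein kinase A, was at 178 ± 35.2 against 2.21 ± 2.07 CPM (SD, n = 5, log2 fold change -7.04).

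The called genes were also placed among all 14 annotated types. Of the 684 genes higher in NP_Nts, 36% had their highest mean level in that type, beside 9.52% of all genes tested. Of the 698 higher in NP_Mrgpra3, 14.3% were highest in NP_Mrgpra3, beside 3.64%. NP_Mrgprd, the third non-peptidergic type, lay nearer to the NP_Mrgpra3 level for 446 (63.9%) of the genes higher in NP_Mrgpra3, and nearer to the NP_Nts level for 114 (16.7%) of those higher in NP_Nts, by distance in log2(CPM + 1). These shares describe the mean levels and carry no test, since the contrast chose the genes. For the distances to NP_Mrgprd, the share over all genes tested was not computed, so 63.9% and 16.7% stand without a reference.

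Single genes showed both patterns. Jak1 was at 2420 ± 203 CPM in NP_Nts and at 604 ± 73.3 CPM in NF_Pvalb, the next type. Mrgpra3 was at 468 ± 108 CPM in NP_Mrgpra3 and 7.83 ± 3.98 in NP_Nts, the next type. Calca in NP_Mrgpra3 (8600 ± 1620 CPM) ranked 4 of 14, after 3 PEP1 types, of which PEP1_Dcn (9700 ± 1620 CPM) and NP_Mrgpra3 did not differ beyond their spread. Gfra1 in NP_Mrgpra3 (155 ± 26.4 CPM) and in NF_Calb1 (151 ± 20.3 CPM) likewise lay within their spread, all values being means ± SD of 5 libraries.

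**Figure D5:**
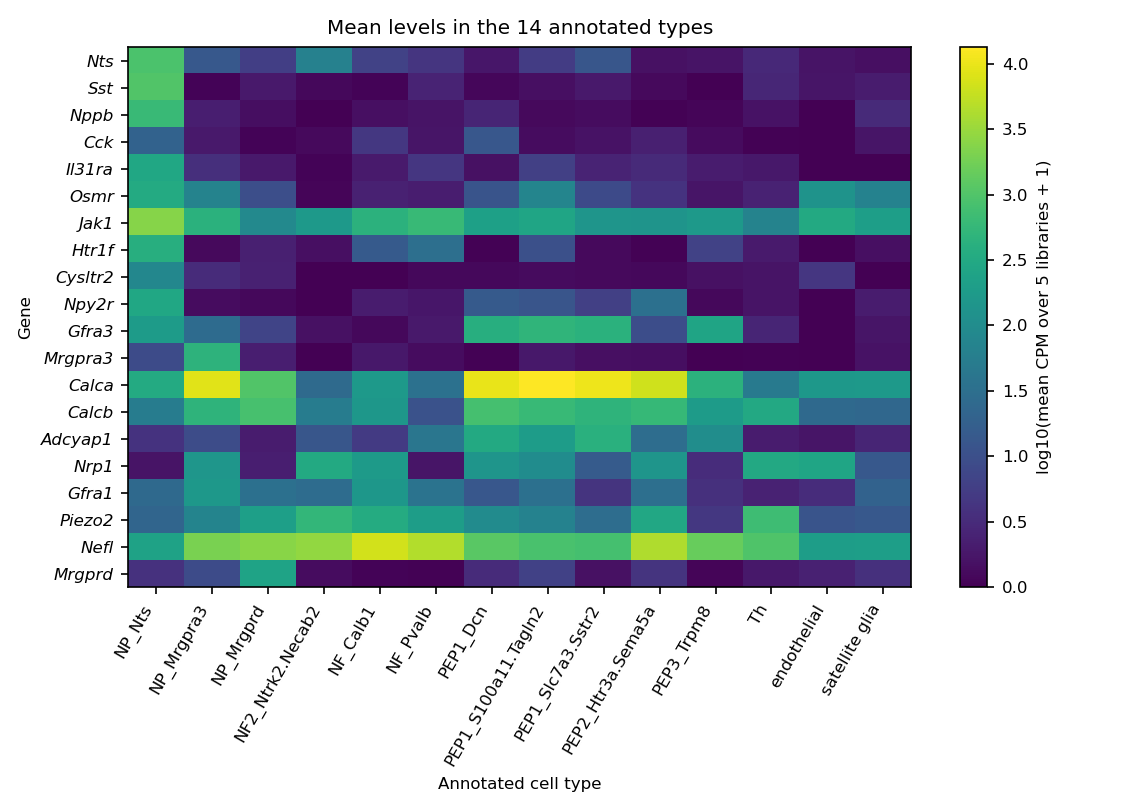
Colour gives log10(mean CPM over 5 libraries + 1) of 20 genes (rows) in the 14 annotated types (columns), with NP_Nts, NP_Mrgpra3 and NP_Mrgprd first. Nts, Sst, Nppb and Il31ra are bright in NP_Nts and dark in nearly all other columns, while Calca is bright in NP_Mrgpra3 and the PEP1 and PEP2 types.

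Markers of other cells were read beside these results. The NP_Nts marker list (Nts, Sst, Nppb, Il31ra and Osmr) was higher in NP_Nts for 5 of 5 members. Of the NP_Mrgpra3 list (Mrgpra3, Mrgprx1, Mrgpra1 and Mrgprb5), Mrgpra3 alone was tested, and it was higher in NP_Mrgpra3. Both types were drawn from these counts, so neither list is an independent check. Summed satellite glia markers ranged from 406 to 962 CPM in NP_Mrgpra3 and from 244 to 671 CPM in NP_Nts, and 2 of 6 tested, Apoe and Fabp7, were higher in NP_Mrgpra3. Schwann markers summed to 607 to 826 against 169 to 354 CPM, nearly all from Pmp22, with Prx and Mag at 0 in NP_Mrgpra3. Endothelial markers summed to 71.9 to 115 against 5.8 to 17.6 CPM, mostly from Egfl7 (75 against 1.95 CPM) and Esam (19 against 1.69 CPM). Of the 8 listed, 2 were tested and 2 were higher in NP_Mrgpra3. Cldn5, Flt1 and Tie1 were at 0 in NP_Mrgpra3, and Cdh5 was at 0 in NP_Nts but not in NP_Mrgpra3. Peptidergic neuron markers summed to 7050 to 11300 against 472 to 1420 CPM, most of it Calca, and 3 of 4 tested were higher in NP_Mrgpra3. The 1 tested member of each of the NP_Mrgprd and Th lists was higher in NP_Mrgpra3 too, and 0 of 2 neurofilament markers were called. Markers of PEP3_Trpm8 neurons, fibroblasts, macrophages and erythroid cells each summed to at most 10.9 CPM in any sum. The part of other cells and of the depth difference in the gene differences was not tested.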

How the data were processed

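Lumbar DRG cells of 5 mice were analysed, and both types, the gene lists and the tests were chosen with earlier results of these data known. The authors aligned reads to mm10 and counted UMIs with Cell Ranger, and deposited a table of raw UMI counts per gene and cell with cell type names from Seurat, which followed their filters on genes per cell and mitochondrial share. Rows naming no gene held 6.37e-05% of the UMIs and were left out. Per their methods, the authors limited doublets by the number of cells loaded and set an upper limit on genes per cell, and no doublet caller was run here.

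From these counts, UMIs were summed per type and library and tested with edgeR 4.0.16 in R 4.3.3 (quasi-likelihood test, TMM scaling, filterByExpr, library as a block, Benjamini-Hochberg adjustment). DESeq2 1.42.0, other scalings, filters, thinned cells and leaving out libraries were alternatives. Each library number was taken as 1 animal, so sums with the same number were paired. Deviations of paired sums correlated at 0.0311 to 0.240, and those of sums from different libraries at -0.166 to 0.169, which overlaps. Named genes were Mrgpra3 and Nts, the 12 with the largest fold in each direction among called genes that were higher in the same type in 5 of 5 libraries and reached a mean of at least 20 CPM in it, up to 4 called genes per direction and list by fold, and list members that define a pathway, called or not. Cd44, Tagln2, S100a11, Ncam1, Sox11 and Gap43 are shown by library because single libraries moved them, a choice made after their values were seen. On simulated data of 8834 genes, recovery was counted at an adjusted p under 0.01 in the right direction, without the 2-fold minimum of a call. It reached 91.3% of 92 genes changed by 2-fold and 100% of 94 changed by 4-fold, with 4 unchanged genes passing. The simulation kept the UMI totals of the sums and the fitted spread of each gene. It drew no library effect and no single cells, and changed fewer genes than were called here. Recovery and false calls in the real sums may therefore differ. The median estimate for the 2-fold genes was a log2 fold change of 1.02, close to the minimum, so the share called would be lower there. Gene sequences came from RefSeq. Numbers were handled in Python 3.11.15 with scipy 1.17.1. A few list members are not reported here.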

Additional observations from a re-analysis of the deposited data

Results flagged for a closer look

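In 249 groups of 5 libraries, 1 library lay far from the other 4 (by Dixon's ratio of its gap to the range, above 0.71) in 37, or 14.9%. Chance flags about 1 in 20 groups of normal values, but a gene seen in 1 library alone always has the highest ratio, so the share is no comparison with chance. NP_Mrgpra3 library 1, with 4 cells, was the distant one for Rgs5 (241 CPM), Cck (3.92 CPM), Osmr (94 CPM), Htr1a (3.92 CPM), Cysltr2 (7.83 CPM), Kcnk18 (90.1 CPM), Bnc2 (27.4 CPM) and Grik1 (70.5 CPM), all high, and for Zfhx4 (1.96 CPM), low. NP_Mrgpra3 library 2 was high for Nts (53.9 CPM), and library 3 was high for Gm525 (1.67 CPM) and low for the median mitochondrial share (3.31%). NP_Mrgpra3 library 4 was the one library above 0 for Sst, Ptpro and Trpm6, each at 0.398 CPM. Library 5 was the one above 0 for 9230105E05Rik (0.252 CPM) and 1700011L22Rik (0.503 CPM).

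NP_Nts library 1, with 10 cells, was high for Ovol2 (4.38 CPM), Klhdc8a (4.38 CPM), Prkar2b (5.85 CPM), Calca (881 CPM), Sorl1 (2.92 CPM) and Rims2 (184 CPM), and low for Kcnk2 (8.77 CPM) and Grik4 (26.3 CPM). NP_Nts library 2 was high for Adcyap1 (12.8 CPM), Il17ra (15.2 CPM), Scn2b (54.1 CPM), Bhlhe41 (124 CPM), Syn3 (42.7 CPM), Ncam1 (28.9 CPM), Sox11 (43.6 CPM) and Gap43 (523 CPM). NP_Nts library 3 was the one above 0 for Fnbp1l (0.882 CPM). NP_Nts library 5 was high for Htr1a (76.3 CPM) and the one above 0 for Slc6a19 (0.111 CPM) and Kcnd3 (0.444 CPM).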

How the results depend on the processing

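With no replicate block, 671 genes were higher in NP_Nts and 694 in NP_Mrgpra3, against 684 and 698 with the library block, and of the 121 genes named by the rule the pairing changed the call of Adcyap1 and Hspb1. Counting every gene with at least 1 UMI gave 954 and 1061 calls, at least 50 UMIs in 5 sums 244 and 249, cells thinned to 20000 UMIs 398 and 380 (6109 genes tested), and no minimum fold 1652 and 1620. DESeq2 gave 642 and 869, and total-UMI scaling 826 and 626. Leaving out 1 library gave 602 to 732 and 628 to 760 calls, a difference in median UMIs per cell of -56000 to -44100, in genes per cell of -1100 to -935, and in mitochondrial share of 0.318 to 0.769 percentage points. In every alternative 0 genes called in one direction were called in the other. Of 1670 values of named genes, 1659 kept their call and none reversed. Library 1 of NP_Mrgpra3, with 4 cells, limits the depth of each comparison.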
